A study of Camelus bactrianus with 10 samples.

Results

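The miR-183, miR-96 and miR-182 cluster was followed in exosomes, vesicles shed by cells, that had been isolated from the plasma of Bactrian camels in thin or normal body condition. Its members were taken by name: every entry of the table whose name, without the species prefix and the notes on changed ends or bases, was miR-183, miR-96 or miR-182, on either arm of the hairpin. This gave 4 of the 2581 entries of the table, namely the 5p arm of each of the 3 miRNAs and the 3p arm of miR-183. The 3p arms of miR-96 and miR-182 were not analysed here. Of the 4 entries, 3 passed the filter of 10 or more normalized counts in at least 5 libraries, as did 468 entries in all, and the 3p arm of miR-183 did not pass.

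Small RNA was sequenced from exosomes of 5 thin and 5 normal camels, with 1 library for each animal. Thin camels weighed 402.6 to 421.2 kg and normal camels 452.3 to 492.8 kg, and the labels name no other treatment, genotype, sex or age. Blood was taken once from each animal, and exosomes were pelleted from its plasma by ultracentrifugation. The series' title sets these exosomes beside hepatocellular carcinoma, a cancer that arises from hepatocytes. Plasma vesicles come from many tissues, so that a lower number of vesicles from a source and less of a miRNA in each vesicle cannot be told apart.

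The 3 miRNAs of this cluster are cut from a single primary transcript and are known for their role in sensory organs, where they are abundant in hair cells of the inner ear and in photoreceptors. In humans and mice, changes in the seed of miR-96, the stretch of a miRNA that pairs with its target messenger RNAs, cause hearing loss. Members of the cluster are also raised in many carcinomas, those of the liver among them, and FOXO transcription factors are among their known targets.

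The sequences of the 5p arms are shown as the table lists them, 5′ to 3′ with T for U, since their seeds are near-identical and their levels have to be read beside each other. Capitals mark the seed, bases 2 to 8.
miR-183-5p: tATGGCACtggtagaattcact
miR-96-5p: tTTGGCACtagcacatttttg
miR-182-5p: tTTGGCAAtggtagaactcaca

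Counted from 1 at the 5′ end, the seeds of miR-183-5p and miR-96-5p were identical at 6 of 7 bases and differed by A2T. The seeds of miR-182-5p and miR-96-5p also shared 6 of 7 bases and differed by A8C. The seeds of miR-183-5p and miR-182-5p shared 5 of 7 bases, with A2T and C8A. Over their whole length miR-183-5p and miR-182-5p were the closest pair, with 18 of 22 bases identical, against 13 of 21 for miR-183-5p and miR-96-5p and 12 of 21 for miR-182-5p and miR-96-5p. The listed miR-96-5p and miR-182-5p lacked the last 2 bases of the entries they were matched to, by the notes in their names, while miR-183-5p carried no such note.

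Library totals ran from 532999 to 757352 normalized counts, an estimated 252631 to 2237451 reads in the table. Thin 4, normal 4 and normal 5 were the deepest, with an estimated 1469137, 2156387 and 2237451 reads. Normal 4 and normal 5 also stood apart in their makeup: 53 entries with names from a miRNA cluster of primates on chromosome 19 made up 0.480% and 0.438% of their counts and at most 0.0103% of any other library. Both libraries are therefore left out in a second set of values below. Each of the 30 values above 0 among the members was a whole number of reads within a tolerance of 0.02 of a read. In the whole table, however, 88.3% to 91.8% of the values under 100 estimated reads were whole numbers of reads and 98.8% to 99.9% were whole or 0.5 of a read, so the true value of 1 read may be 0.5 of the one used. All estimated reads would then be 2 times as many and the counting intervals below narrower, while the normalized counts and the tests between groups would stay as they are. An entry at 0 was taken to stand for fewer than about 5 of the estimated reads, between 1.65 and 10.5 normalized counts depending on the library. This limit was assumed, and the lowest value above 0 among the members was 5 estimated reads.

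MiR-182-5p was the most abundant member. It held 294, 59.1, 65.5, 79.7 and 129 normalized counts in thin 1 to 5, against 44.3, 60.5, 35.97, 182.9 and 213 in normal 1 to 5. The highest value lay in a thin camel, the next highest values lay in normal 5 and normal 4, and the groups overlapped. Its mean was 125 ± 98.3 in thin and 107 ± 83.8 in normal camels (SD, n = 5 each), and by the mean over all libraries it ranked at place 195 of all entries. Thin 1 and thin 2 were the highest and the lowest of the thin camels. Their exact Poisson intervals at 95%, 253 to 341 and 39.3 to 85.4, did not overlap. Those of thin 3 and thin 4, 48.5 to 86.6 and 68.3 to 92.5, overlapped each other and that of thin 2. These Poisson intervals and the binomial intervals below cover counting error only. They leave out the error of library preparation or amplification, which 1 library for each animal cannot give.

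MiR-183-5p, the member that gives the cluster its name, was lower. It held 44.4, 31.6, 8.02, 53.0 and 19.04 normalized counts in thin 1 to 5, against 16.4, 34.6, 6.63, 87.5 and 58.0 in normal 1 to 5. The highest values were those of normal 4, normal 5 and thin 4, the 3 deepest libraries, and the part of depth was not tested. Both groups had an animal under 10, thin 3 with 6 estimated reads and normal 3 with 7. The mean was 31.2 ± 18.3 in thin and 40.6 ± 32.7 in normal camels (SD, n = 5 each). The highest value was 6.60 times the lowest in thin camels and 13.2 times the lowest in normal camels.

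MiR-96-5p was listed above 0 in all 5 thin camels and in 3 of 5 normal camels. It held 115, 12.7, 29.4, 28.6 and 15.9 normalized counts in thin 1 to 5, against 0, 13.8, 0, 39.0 and 48.4 in normal 1 to 5. Normal 1 and normal 3, where it was listed at 0, would by the assumed limit have shown a value at 5 reads, or 6.33 and 4.73 normalized counts. The lowest value of a thin camel, in thin 2, rested on 6 estimated reads. Its mean was 40.3 ± 42.5 in thin camels and 20.2 ± 22.4 in normal camels (SD, n = 5 each), so the SD was about as large as the mean in both groups.

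**Figure D1:**
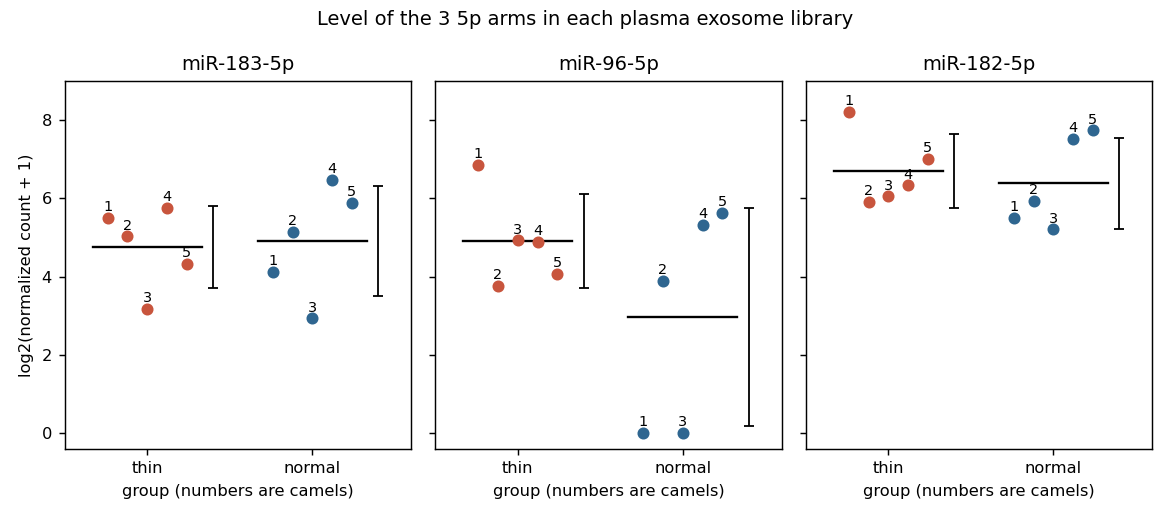
Each point is 1 camel, numbered as in the labels, with its level of miR-183-5p, miR-96-5p or miR-182-5p as log2(normalized count + 1). Horizontal lines are the group means of these log2 values and the bars beside them the SD over 5 camels. Thin 1 is the highest library for miR-96-5p and miR-182-5p, normal 4 and normal 5 are above the other normal camels in all 3 panels, and normal 1 and normal 3 are at 0 for miR-96-5p.

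The order of the libraries was similar for the 3 members. Thin 1, normal 5 and normal 4 were the 3 highest for both miR-182-5p and miR-96-5p, and normal 3 was the lowest for miR-182-5p and miR-183-5p. Over the 10 libraries the log2 values of miR-182-5p and miR-96-5p correlated with Pearson's r = 0.83 (permutation p = 0.00203) and Spearman's rho = 0.95 (permutation p = 0.0002). MiR-182-5p and miR-183-5p had r = 0.68 (permutation p = 0.0317) and rho = 0.73 (permutation p = 0.01998). MiR-183-5p and miR-96-5p had r = 0.64 (permutation p = 0.0434) and rho = 0.67 (permutation p = 0.0375). Adjusted over these 6 tests by the Benjamini-Hochberg method, the permutation p was 0.00609 and 0.0012 for the first pair and between 0.03996 and 0.0434 for the other pairs.

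Without the 2 libraries farthest from the median of the first miRNA of a pair, r was 0.75 for miR-182-5p and miR-96-5p, 0.66 for miR-182-5p and miR-183-5p and 0.73 for miR-183-5p and miR-96-5p. Without normal 4 and normal 5 it was 0.81, 0.54 and 0.59 over 8 libraries, with rho at 0.90, 0.62 and 0.50. Without the 3 deepest libraries r was 0.82, 0.60 and 0.56. No permutation test was run on these smaller sets. All values of a library share its scaling factor and its depth, and the part of these in the correlations was not tested.

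The comparison of thin with normal camels asked whether the level of the cluster in plasma exosomes differed with body condition. No member passed the test. With limma on log2(normalized count + 1) over all 468 entries, 0 of the 3 tested members had an adjusted p under 0.05, against 9 of 468 entries or 1.92% over the whole table. None of the 3 had an unadjusted p under 0.05 either, against 55 of 468 entries or 11.8%. The thin and normal groups overlapped in all 3 members, while 3.63% of tested entries did not overlap. Fold changes are given on this log2 scale, and adding 1 makes those of low entries above 0 look smaller than they are. Where a value of 0 stands for reads under the limit, a fold change can instead look larger.

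For miR-96-5p the log2 fold change was 1.94 ± 1.21 (SE), with a 95% interval of -0.70 to 4.57 (limma adjusted p = 0.603). This value turns on the 2 normal camels listed at 0: with each 0 in the table set to 5 reads of its library, a setting chosen after the values were seen, it was 0.86 with an interval of -0.79 to 2.51 (adjusted p = 0.716). For miR-182-5p it was 0.32 ± 0.61, with an interval of -1.01 to 1.66 (adjusted p = 0.866). For miR-183-5p it was -0.15 ± 0.76, with an interval of -1.81 to 1.5 (adjusted p = 0.963). All 3 intervals hold 0 and also changes of more than 2-fold upward, and those of miR-182-5p and miR-183-5p changes of more than 2-fold downward, so the data do not show that the groups had the same level.

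Summed to 1 value for each mature name, the table held 428 names past the filter, of which 7 or 1.64% were called. The 3 members had a single entry each, so their values were the same, and 0 of 3 were called (limma adjusted p = 0.592 for miR-96-5p, 0.879 for miR-182-5p and 0.964 for miR-183-5p).

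The high values of normal 4 and normal 5 set much of this comparison. Without both libraries the log2 fold change was 3.61 for miR-96-5p with an interval of 1.06 to 6.15 (limma unadjusted p = 0.00940, adjusted p = 0.210), 1.15 for miR-182-5p with an interval of -0.10 to 2.41 (adjusted p = 0.538) and 0.69 for miR-183-5p with an interval of -1.09 to 2.47 (adjusted p = 0.798). In that fit 43 of 429 tested entries had a limma unadjusted p under 0.05, and 3 an adjusted p under 0.05. The value of miR-183-5p changed sign there, and again no member passed after adjustment. The fit for miR-96-5p then set 5 thin camels against 3 normal camels of which 2 were at 0, so its fold change depends on the number added before the logarithm. Thin 1 set the sign of miR-182-5p: without that camel its log2 fold change was -0.05 (adjusted p = 0.948).

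**Figure D2:**
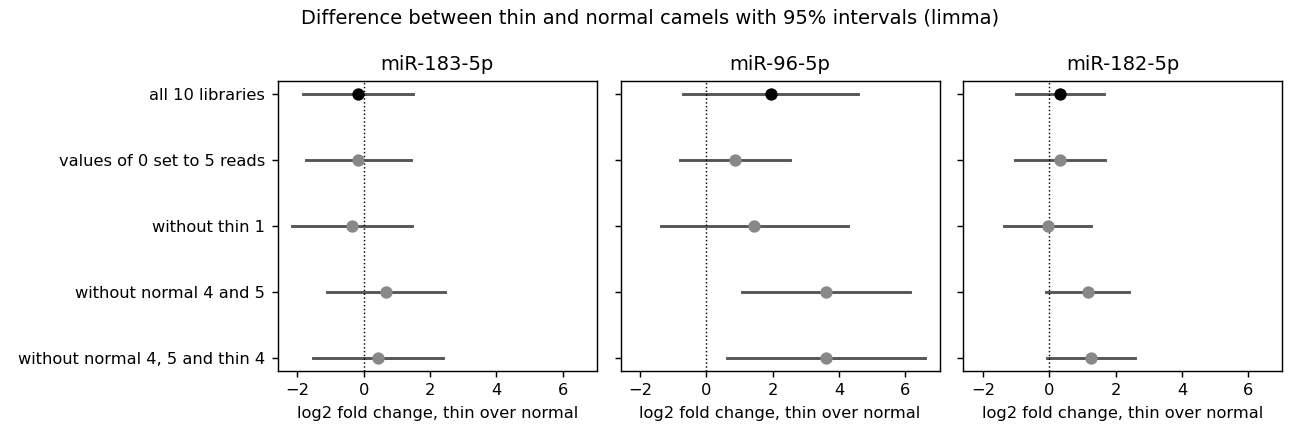
Points are log2 fold changes of thin over normal camels from limma, lines their 95% intervals, and the dotted line marks 0. Rows give the fit on all 10 libraries, with values of 0 set to 5 reads, without thin 1, without normal 4 and normal 5, and without the 3 deepest libraries. The value of miR-96-5p was 1.94 with all libraries and 3.61 without normal 4 and normal 5.

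The spread between animals of a group differed among the members. The SD within groups on the log2 scale was 1.06 for miR-182-5p, 1.24 for miR-183-5p and 2.15 for miR-96-5p, against a median of 0.96 over the 468 tested entries. Among entries with a mean within 2-fold of the member's own, the median SD was 0.91 over 103 entries near miR-182-5p, 1.43 over 150 entries near miR-183-5p and 1.5 over 161 entries near miR-96-5p. MiR-183-5p thus varied less than the median entry of its level. The SD of miR-182-5p was larger than that of 54.9% of all tested entries and that of miR-183-5p than 59.8%, while that of miR-96-5p, which takes in the 2 values of 0, was larger than 89.1%.

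The ratio of miR-182-5p to miR-183-5p does not depend on the scaling of a library. There were 6.63, 1.87, 8.17, 1.504 and 6.75 counts of miR-182-5p for each count of miR-183-5p in thin 1 to 5, and 2.69, 1.75, 5.43, 2.09 and 3.67 in normal 1 to 5. MiR-182-5p was the more abundant of the pair in all 10 libraries. Thin 1, thin 3 and thin 5 had the highest ratios, while thin 4 had the lowest of all. The mean log2 ratio was 2.0 ± 1.16 in thin and 1.52 ± 0.65 in normal camels (SD, n = 5 each), a difference of 0.48 that did not pass a two-sided exact permutation test (p = 0.413, with a smallest possible p of 0.00794).

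As shares of reads, miR-183-5p made up 13.1%, 34.9%, 10.9%, 39.9% and 12.9% of the estimated reads of the pair in thin 1 to 5, and 27.1%, 36.4%, 15.6%, 32.4% and 21.4% in normal 1 to 5. The exact Clopper-Pearson interval at 95% was 34.2% to 45.8% in thin 4 and 8.82% to 18.5% in thin 1. Thin 4 had the highest share of all, and its interval overlapped that of thin 2, 21.0% to 50.9%, but not that of thin 1. Intervals were also apart in normal 4, at 29.2% to 35.7%, and normal 5, at 18.7% to 24.4%.

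**Figure D3:**
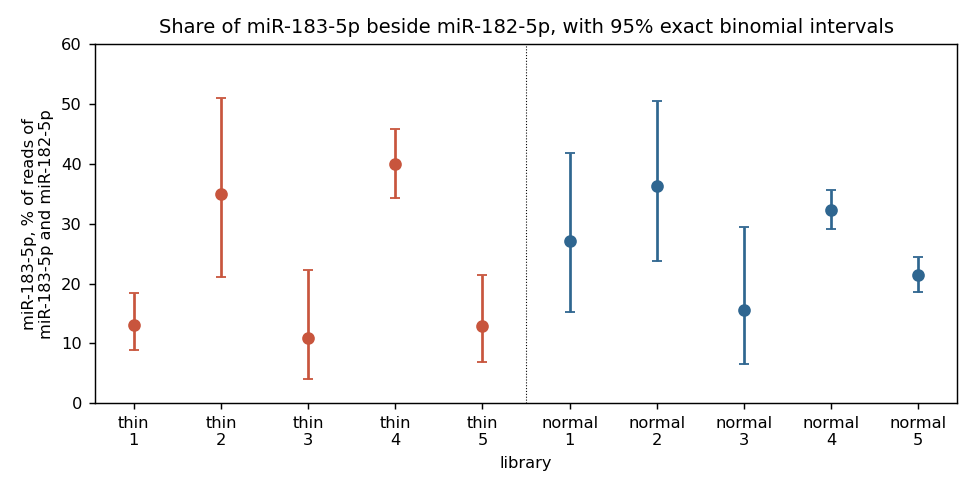
The share of miR-183-5p in the estimated reads of miR-183-5p and miR-182-5p is shown in percent for each library, thin camels left and normal camels right of the dotted line, with exact binomial intervals at 95%. Thin 1, thin 3 and thin 5 lie between 10.9% and 13.1%, while thin 2 and thin 4 lie at 34.9% and 39.9%.

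MiR-96-5p made up 25.4%, 12.2%, 28.6%, 17.7% and 9.71% of the summed counts of the 3 5p arms in thin 1 to 5. In normal 2, normal 4 and normal 5 its share was 12.7%, 12.6% and 15.2%, and in the other normal camels it was listed at 0. Thin 1 and thin 3 had the highest shares of all libraries. As it was at 0 in 2 libraries, its ratio to miR-183-5p was not tested.

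The 3p arm of miR-183, usually the less stable strand of the hairpin, was listed above 0 in 2 libraries. It held 5.07 normalized counts in thin 4 and 1.65 in normal 4, from 11 and 5 estimated reads. The 5p arm was 10.5 times as abundant in thin 4 and 53.0 times in normal 4. Of the reads of both arms, 8.73% were 3p in thin 4 (95% Clopper-Pearson interval 4.44% to 15.1%) and 1.85% in normal 4 (0.604% to 4.27%). Both are among the 3 deepest libraries. Normal 5, the deepest of all, was listed at 0 for the 3p arm, beside 175 estimated reads of the 5p arm and with a limit of 1.66 normalized counts. In the shallowest library, thin 2, fewer than about 10.5 normalized counts of this arm would by the assumed limit not have been listed. The ratio of the arms was therefore not tested.

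The seed of miR-96-5p was shared by 3 further entries, of which miR-1271-5p was by far the most abundant. Their sequences are shown with the seed in capitals, since miRNAs of the same seed are expected to pair with overlapping targets.
miR-1271-5p: cTTGGCACctagtaagcactca
miR-507a: aTTGGCACctcttagagtgaa
miR-507b: aTTGGCACttttttgagtgtc

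MiR-1271-5p held 400, 397, 383, 719 and 408 normalized counts in thin 1 to 5, against 595, 438, 798, 767 and 796 in normal 1 to 5. The name of its entry notes 1 base changed from the matched one. Thin 4 lay among the normal camels, and the other thin camels lay below all of them. The log2 fold change was -0.57 ± 0.27 (SE), with an interval of -1.16 to 0.03, and did not pass (limma adjusted p = 0.460). MiR-507a, listed above 0 in 8 libraries, had a log2 fold change of -2.28 ± 1.14 (adjusted p = 0.483), and miR-507b did not pass the filter.

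MiR-96-5p thus made up a small part of the counts with its seed. Its share was 22.4%, 3.09%, 6.34%, 3.69% and 3.51% in thin 1 to 5. It was 2.80%, 4.54% and 5.24% in normal 2, normal 4 and normal 5 and was listed at 0 in normal 1 and normal 3. MiR-1271-5p made up 77.6% to 96.9% of these counts in thin and 86.1% to 97.5% in normal camels. The seed of miR-182-5p was found in 1 further entry, a predicted small RNA above 0 in 3 libraries, and that of miR-183-5p in no other entry analysed here.

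**Figure D4:**
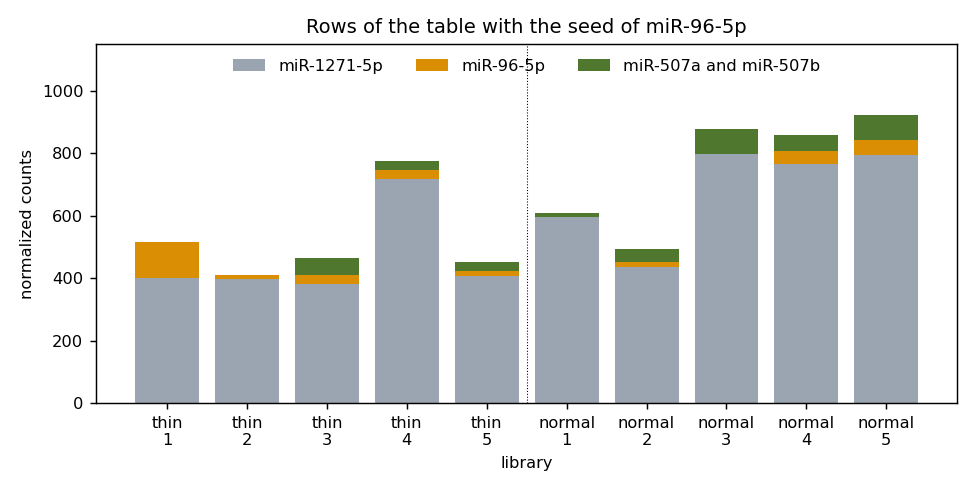
Bars give the summed normalized counts of the 4 entries with the seed of miR-96-5p in each library, thin camels left and normal camels right of the dotted line. MiR-96-5p reaches 22.4% of the bar in thin 1 and at most 6.34% in any other library.

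The mature names whose levels followed those of the members most closely were ranked by Spearman's rho over the 10 libraries, among 425 other names past the filter. For miR-183-5p they were miR-424-5p (rho = 0.96), miR-125b-2-3p (0.83), miR-338-5p (0.81), the predicted small RNA PC-5p-6677_980 (0.76) and miR-143-3p (0.75). For miR-182-5p they were miR-497-5p (rho = 0.88), PC-5p-6677_980 (0.81), miR-7-1-3p (0.79), miR-424-5p (0.75) and miR-181a-3p (0.73). MiR-424-5p and PC-5p-6677_980 stood in both rankings. These are descriptions, since the highest of 425 values are selected, and none of these names passed the test between the groups (limma adjusted p from 0.627 to 0.984).

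Marker miRNAs of possible source tissues were set beside the cluster, with medians over tested names beside a median log2 fold change of -0.02 over all 428, of which 0.935% rose and 0.701% fell. In numbers, 4 names were called higher and 3 lower, but 2 higher and 8 lower after upper quartile scaling. From the list of miRNAs known to be raised in hepatocellular carcinoma the cluster, which also belongs there, was left out. Of the 11 tested names of this list, 1 was called higher, miR-21-5p, and 0 lower. The log2 fold change was above 0 for 4 names and below 0 for 7, with a median of -0.25. MiR-21-5p, often called an oncogenic miRNA, had a mean of 83219 ± 17700 normalized counts in thin and 37673 ± 5399 in normal camels (log2 fold change 1.13, limma adjusted p = 0.00841). Its log2 fold change was above 0 in all 24 settings tried, and its call was lost in 4 of them: the adjusted p was 0.583 after upper quartile scaling, 0.104 without trend, 0.125 without normal 4 and normal 5 and 0.242 without the 3 deepest libraries. The next most abundant names of the list, miR-25-3p, which also stands in the red blood cell list, and miR-221-3p had log2 fold changes of -0.84 and 0.79 (adjusted p = 0.0698 and 0.147).

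Of the 8 tested names of the epithelial list, 0 passed, 7 had a log2 fold change above 0, and the median was 0.72. This list, of which miR-200a-3p and miR-200b-3p are markers of epithelial cells, summed to 1.39% of thin 1, to 0.0875% to 0.234% of the other thin libraries, and to 0.0305% to 0.330% of normal libraries. Thin 1, the highest library for miR-182-5p and miR-96-5p, was thus also the highest for the sum of this list. Normal 3, the lowest for miR-182-5p and miR-183-5p, was the lowest for this sum. Normal 4 and normal 5, with high values of all 3 members, had 0.103% and 0.0991%. The names of the list differed: miR-200a-3p and miR-200b-3p were highest in a thin camel, but miR-200c-3p, also among its 3 most abundant names, in a normal camel. MiR-200c-3p averaged 255 ± 164 in thin and 263 ± 296 in normal camels (log2 fold change 0.44, limma adjusted p = 0.842). The part of epithelial vesicles in the level of the cluster was not tested.

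All 9 tested names of the red blood cell list had a log2 fold change below 0, with a median of -0.92, and 1 passed, miR-486 (log2 fold change -1.41, limma adjusted p = 0.00841). MiR-486-5p, tested as a separate name of this list, did not pass. The call of miR-486 was lost in 3 of 24 settings, with an adjusted p of 0.104 without trend, 0.124 without normal 4 and normal 5 and 0.239 without the 3 deepest libraries, while its log2 fold change stayed between -2.17 and -1.14. The list made up 11.7% to 19.5% of thin and 19.5% to 35.3% of normal libraries. Normal 3, the lowest library for miR-182-5p, had the highest share, 35.3%. Thin 1, the highest library for miR-182-5p, had the highest share of the thin libraries, 19.5%. Normal 4 and normal 5 had 24.4% and 25.6%. Of the neuronal and sensory list, 0 of 4 tested names passed, 2 had a log2 fold change above 0 and 2 below, and the median was 0.45. Its most abundant names were on the lower side: miR-128-3p averaged 1050 ± 253 in thin and 1183 ± 43.4 in normal camels (log2 fold change -0.20, limma adjusted p = 0.744), and miR-7-5p 946 ± 233 in thin and 1027 ± 497.7 in normal camels (-0.04, adjusted p = 0.976). MiR-204-5p, a miRNA of the retina's pigment layer and other tissues, averaged 238 ± 98.4 in thin and 126 ± 56.0 in normal camels (log2 fold change 0.94, adjusted p = 0.342). Of the platelet, leukocyte and liver lists, 0 of 6, 0 of 7 and 0 of 4 tested names passed, with medians of -0.05, 0.11 and -0.48.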

How the data were processed

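Small RNA was sequenced from plasma exosomes of 10 camels. Per the labels' protocols, RNA came from a mirVana kit and libraries from a TruSeq small RNA kit, and ACGT101-miR cleared the reads of adapter dimers, junk, simple sequence, repeats and RNA of common families. The number of libraries in those protocols differs from the 10 in the labels and the table, which was not settled here. The mapping reference, miRBase version, genome build and library factors were not stated in the sources used here. The authors deposited a signal for each entry and camel that their headers name normalized counts, and 2 emptied lines were not used.

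The value of 1 read was estimated in each library from predicted small RNAs listed there alone, whose names end in a number taken as copies: value over that number was the same, within 0.1%, in 1086 of 1150 such entries (94.4%). That share was lowest in normal 4 and normal 5, at 83.1% and 79.7%, against 92.3% to 99.1% in the other libraries. The value of 1 read was 0.330 to 2.11 normalized counts. Values of other entries also fell on 0.5 of a read, so the unit may be 2 times too large, and no count test was run. Values were tested as log2(value + 1) with limma 3.58.1 with trend in R 4.3.3, group as the only term, over entries at 10 or more in at least 5 libraries, with Benjamini-Hochberg adjustment and a threshold of 0.05; the test was tried on simulated data. Single ratios had an exact permutation test over 252 splits, and correlations 100000 permutations. Python 3.11.15, numpy 2.4.6, pandas 2.3.3, scipy 1.17.1 and matplotlib 3.10.9 were used. Alternatives were other pseudocounts, filters, scalings, priors and weights, a replicate block, and libraries left out. The members, lists and tests were chosen with earlier results of these data known. Named were all members, the 5 names closest to miR-183-5p and to miR-182-5p, and up to 3 abundant names of each list; the further entries with a member's seed were added after their values were seen.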

Additional observations from a re-analysis of the deposited data

Results flagged for a closer look

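In 12 groups of 5 values checked, 3 held a value farther from its nearest neighbour than Dixon's limit of 0.71 of the group's range. Chance passes this limit in about 1 of 20 groups only where values are normally distributed. Counts and shares were checked without logarithms, where high values stand out more, so this rate need not hold here. MiR-96-5p held 115 normalized counts in thin 1, against at most 29.4 in the other thin camels. The share of miR-96-5p among entries with its seed was 22.4% in thin 1, which rests on the same value. MiR-1271-5p held 719 normalized counts in thin 4, against at most 408 in the other thin camels. MiR-182-5p in thin 1, at 294, lay just inside the limit, with a gap of 0.705 of the range.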

How the results depend on the processing

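No member passed an adjusted p of 0.05 under any setting that could test it. There were 23 such settings for miR-183-5p and miR-96-5p and 24 for miR-182-5p. Over entries, limma adjusted p ran from 0.418 to 0.995, 0.210 to 0.731 and 0.538 to 0.983 in that order. Over mature names it ran from 0.328 to 0.996, 0.226 to 0.748 and 0.606 to 0.987. MiR-183-5p and miR-96-5p could not be tested with a filter of 10 or more in every library. The log2 fold change of miR-96-5p stayed above 0, between 0.79 and 3.61 over entries and 0.57 and 3.61 over mature names. Over entries, that of miR-183-5p turned to 0.021 with equal totals, 0.69 without normal 4 and normal 5 and 0.44 without the 3 deepest libraries. That of miR-182-5p turned to -0.55 after upper quartile scaling and -0.35 with sample quality weights. The cause of these changes was not tested. With each library left out in turn the range was -0.65 to 0.24 for miR-183-5p, 1.19 to 2.60 for miR-96-5p, -0.054 to 0.66 for miR-182-5p and 0.22 to 0.83 for the log2 ratio of miR-182-5p to miR-183-5p. Upper quartile scaling moved the median of all entries to -0.86, and equal totals to 0.17. Of all entries, 9 were called, but 15 with no filter, 0 after upper quartile scaling (102 at an unadjusted p under 0.05), 4 without trend, 14 with sample quality weights, 3 without normal 4 and normal 5, 5 without the 3 deepest libraries and 6 to 14 with a library left out. Of mature names, 7 were called, but 12 with no filter, 11 with that filter, 2 without trend, 10 after upper quartile scaling (2 higher and 8 lower, against 4 and 3), 18 with weights, 1 without normal 4 and normal 5, 3 without the 3 deepest and 4 to 9 with a library left out. By the labels, same-numbered animals share only a number. Their deviations from the group means correlated at -0.20 to 0.52. The closest normal library was the same-numbered one for thin 1 and thin 2 but not for thin 3, thin 4 and thin 5. Whether a number marks a shared step was not tested. With a replicate block 9 entries and 5 mature names were called, and the members' log2 fold changes stayed at -0.15, 1.94 and 0.32. The ratio's difference of 0.48 had an exact sign-flip p of 0.188. The smallest possible p of that test was 0.0625, so it could not pass 0.05. Low members rest on few reads, which limits small changes.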
